A study of Mus musculus with 33 samples.

Results

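Thy1+SSEA1- cells are the part of a reprogramming culture that still carries the fibroblast antigen Thy1 and has not gained the early pluripotency antigen SSEA1, and they are often called refractory. They were followed here from day 2 to day 14 of OSKM induction in 7 of the 33 samples of the study. The members were chosen by their labels: the control libraries of this gate on days 2, 4, 8 and 14 and the Dppa2/4 libraries of days 2, 8 and 14. The library labelled Dppa2/4 day 4 was left out because its Dppa2 stood at the level of control cells, and so was a day 11 column of this gate.

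The cells were primary mouse embryonic fibroblasts from 14 to 15 dpc embryos, with the genotype Col1a1-OSKM+/-; Rosa26-rtTA+/-; Oct4-GFP+/-. In them, doxycycline at 1 μg/ml turns on Pou5f1 (Oct4), Sox2, Klf4 and Myc from a single cassette through the rtTA activator, and GFP reports the endogenous Oct4 gene. Every library of both arms shares this genotype and the doxycycline, and medium with serum and LIF (ESGRO). In 1 arm the cells were also given Dppa2 and Dppa4, SAP-domain proteins found in early embryos and the germline, and the other arm is labelled control overexpression. The labels do not name the control vector or say how many embryos were pooled. On days 8 and 14 the sort was also restricted to GFP-negative cells. Each arm and day had 1 library, so there were no replicates.

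Thy1 is a small glycoprotein anchored in the membrane of fibroblasts. Induced fibroblasts that move towards pluripotency first lose Thy1, then gain SSEA1, a sugar epitope made by fucosyltransferases, and late switch on endogenous Oct4. A fibroblast that does not take this path can stop dividing, take on a secretory and contractile state, or keep its identity, and prolonged expression of OSKM is known to induce cell cycle inhibitors. Because cells leave the gate when they lose Thy1, the libraries of later days hold the cells that remained in it, not the same cells followed over time.

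Expression was deposited as FPKM, fragments per kilobase of transcript scaled to the mapped fragments of the library. A level is thus relative to the other RNA of its library. The summed FPKM ran from 674100 in the Dppa2/4 day 8 library to 886310 in the control day 14 library. Depth worked back from the lowest values was 22800000 to 35300000 fragments per library, and 12612 to 13786 genes reached 1 FPKM. The labels were checked against the sorted antigens. Thy1 (ENSMUSG00000032011, chromosome 9, 44043384 to 44048579, GRCm38) stood at 241, 286, 447 and 749 FPKM on days 2, 4, 8 and 14 of the control arm and at 195, 244 and 278 on days 2, 8 and 14 of the Dppa2/4 arm, the order used for all values below. The 9 Thy1-SSEA1- libraries had 39.5 to 229.6 FPKM, the 6 Thy1-SSEA1+ libraries 6.27 to 67.2 and the 5 GFP+ libraries 4.71 to 9.77. Only the day 2 library of Dppa2/4 Thy1-SSEA1- cells lay above the lowest Thy1+SSEA1- value. Fut9, the fucosyltransferase that makes SSEA1 in mouse pluripotent cells, was at most 1.29 FPKM in the 7 libraries, against 5.26 to 15.3 in Thy1-SSEA1+ libraries. Fut4, another enzyme able to make it, was at most 3.11, against 0.252 to 1.15 in Thy1-SSEA1+ libraries, so Fut4 did not separate the gates. Nanog, a core pluripotency factor at 260 to 360 FPKM in GFP+ cells, was 1.42 to 4.69. The Dppa2/4 arm had 599, 175 and 171 FPKM of Dppa2 and 827, 201 and 232 of Dppa4, and the control arm at most 0.527 and 0.907. The library left out had 0.354 and 0.409 FPKM of them. The labels of these 7 libraries therefore matched the RNA of Thy1 and Fut9. Dppa2 and Dppa4 are no separate check of the arm labels, since the library with Dppa2 at control level was left out. The Dppa2/4 day 2 library correlated least with the others (Pearson's r across genes of 0.82 to 0.89, against 0.84 to 0.94 among the other 6).

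The first question was which genes changed with time in cells that stayed Thy1+SSEA1-, whatever the arm. Cells of later days had less RNA of the machinery of division and of ribosome synthesis, and more RNA of lysosomes, secreted matrix and its proteases, glycolysis and sterol synthesis. A straight line over days was fitted to log2(FPKM + 1) with the arm as a term (limma), so a change is given as a difference on that log2 scale per day. It understates the change of genes near or under 1 FPKM. Of 14608 genes tested, 1686 rose (11.5%) and 1083 fell (7.41%) at an adjusted p under 0.05. The fold from day 2 to day 14 was at least 2 in both arms, on the log2(FPKM + 1) scale, for 1044 of those that rose and 574 of those that fell. All 2769 had slopes of the same sign in both arms. With quantile normalization the counts were 1313 and 1453, so that 47.5% of the calls were higher, against 60.9% as fitted. The median change of all genes was 0.0099 per day, and -0.0030 with that scaling. In bulk RNA, fewer cells of a kind and less RNA per cell cannot be told apart. With 1 library per arm and day, the p-values measure the scatter of 7 libraries about 2 parallel lines, with 4 residual degrees of freedom, and not the spread between animals or cultures.

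The number of calls depended on the first and the last day. Without the Dppa2/4 day 14 library no gene passed (limma, lowest adjusted p = 0.0617, 3423 genes at an unadjusted p under 0.05), although the sign was the same for all 2715 of the called genes that could still be fitted. Leaving out both day 14 libraries also left 0 calls (lowest adjusted p = 0.131, 3231 genes at an unadjusted p under 0.05), with the same sign in 2656 of 2664. The control arm alone, with 4 libraries, gave 0 calls (3914 at an unadjusted p under 0.05) and the Dppa2/4 arm alone 45 higher and 20 lower. Without the control day 2 library 205 genes rose and 75 fell, and without the control day 14 library 437 and 312. Adding the library labelled Dppa2/4 day 4 left 192 and 118. Of the lists described below, those of replication, mitosis, lysosomes and collagens then had 0 calls. Ribosome biogenesis kept 12 of 27 and cholesterol synthesis 5 of 21.

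**Figure D1:**
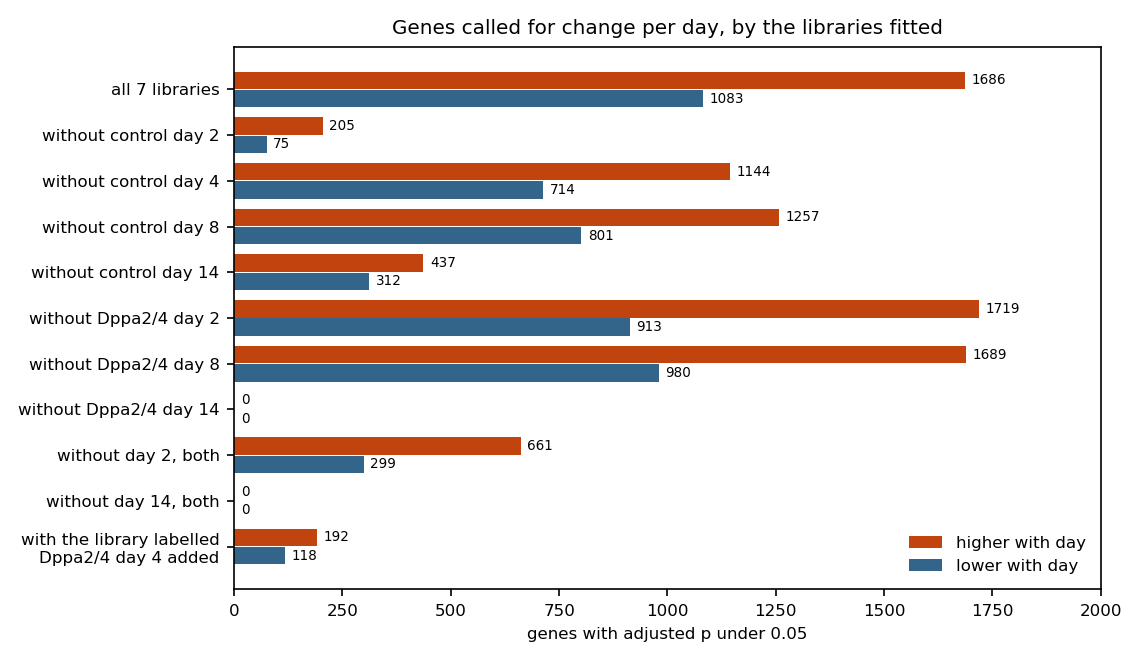
Number of genes called for change per day (adjusted p under 0.05, limma) when all 7 libraries are fitted, when 1 library or 1 day is left out, and when the library labelled Dppa2/4 day 4 is added; red bars count genes that rose with day and blue bars genes that fell. The bars fall to 0 without the Dppa2/4 day 14 library and without both day 14 libraries, and reach 1719 and 913 without the Dppa2/4 day 2 library.

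The genes that copy DNA and divide the cell were lower on day 14 than on day 2 in both arms. Of 37 tested genes of DNA replication and S phase, 24 fell and 0 rose, against the 7.41% of all genes that fell; the median change was -0.11 per day. Of 36 genes of mitosis and the spindle checkpoint, 22 fell and 0 rose, and all 36 slopes were negative (median -0.11). Ccna2, the cyclin of S phase and G2 (ENSMUSG00000027715, chromosome 3, 36564865 to 36572150), stood at 152, 93.5, 43.1 and 24.9 FPKM in control cells and at 118, 99.6 and 36.1 in Dppa2/4 cells. Each arm was lowest on day 14, and the change was -0.18 per day (SE 0.027, adjusted p = 0.0119). Pola1, the catalytic subunit of the polymerase that lays down primers (ENSMUSG00000006678, chromosome X, 93304767 to 93632155), had 47.9, 18.9, 10.2 and 6.94 FPKM in control and 96.2, 17.9 and 10.5 in Dppa2/4 cells, and was 6.91-fold and 9.2-fold lower on day 14 than on day 2. Its change was -0.23 per day (SE 0.037, adjusted p = 0.0133), and both day 2 libraries lay above all others.

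Cyclin E2 (Ccne2), which starts S phase with CDK2, was 21, 8.85, 5.78 and 1.78 FPKM in control and 36.2, 12.6 and 5.04 in Dppa2/4 cells, a change of -0.22 per day (SE 0.022, adjusted p = 0.00892). All 6 subunits of the MCM helicase that unwinds the origins fell, from -0.10 per day for Mcm6 to -0.17 for Mcm5. Rrm2, the ribonucleotide reductase subunit that sets nucleotide supply, went from 272 to 38.6 FPKM in control cells and from 219.7 to 62.8 in Dppa2/4 cells between day 2 and day 14. Among mitotic genes, Ccnb1, the cyclin of mitotic entry, was 87.7, 53.7, 28.6 and 17.3 FPKM in control and 69.8, 58.8 and 18 in Dppa2/4 cells. Plk1 and the Aurora kinases Aurka and Aurkb changed by -0.14, -0.14 and -0.089 per day. Mki67, the usual proliferation marker, did not pass the test: its levels were 43.2, 35.4, 14.2 and 9.64 in control and 23.4, 39.5 and 17 in Dppa2/4 cells (-0.11 per day, SE 0.041, adjusted p = 0.0951), and its highest Dppa2/4 value was that of day 8.

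The fall did not follow the same days in both arms. In control cells the median replication gene had changed by -1.47 on the log2 scale from day 2 to day 8 and by -0.32 from day 8 to day 14, while in Dppa2/4 cells the steps were -0.38 and -0.67. For mitotic genes they were -1.34 and -0.46 in control and 0.043 and -0.90 in Dppa2/4 cells. The Dppa2/4 day 8 library was thus near its own day 2 library for mitotic genes, as for Ccna2 above. With 1 library per arm and day this difference in timing has no test of its own. Without the Dppa2/4 day 14 library the medians were -0.12 and -0.12 per day, with the sign kept in 36 of 37 replication and 36 of 36 mitotic genes.

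The promoters of these genes are shown because the genes fell together and share short elements that RefSeq sequence (GRCm38.p6) allows to be read. The windows run from 250 bases before to 50 bases after a transcription start, and 30 of 36 mitotic and 30 of 37 replication genes had at least 1. The letters TTTGAA, the core of the cell cycle homology region of mitotic promoters, occurred on either strand in 25 of 33 mitotic promoters (75.8%), against 17.9% of all 32851 promoters. CCAAT, the box bound by NF-Y, occurred in 26 of 33 (78.8%), against 37.4%. TTTNNCGC, the pattern of E2F sites, occurred in 14 of 35 replication promoters (40.0%), against 5.17%. None of the 3 patterns contains another, and a match describes letters, not binding. Below, capitals mark both mitotic elements, on either strand, in Aurka (chr2:172370521-172370820, minus strand) and Cdc20 (chr4:118437294-118437593, minus strand), called mitotic genes with both in 1 window, and the E2F pattern in Pola1 (chrX:93632106-93632405, minus strand).
Aurka: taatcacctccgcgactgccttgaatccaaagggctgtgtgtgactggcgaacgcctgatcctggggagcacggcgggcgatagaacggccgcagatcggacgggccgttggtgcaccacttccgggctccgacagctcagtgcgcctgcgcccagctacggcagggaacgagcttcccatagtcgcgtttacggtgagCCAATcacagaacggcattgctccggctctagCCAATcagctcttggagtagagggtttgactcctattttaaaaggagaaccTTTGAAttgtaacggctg
Cdc20: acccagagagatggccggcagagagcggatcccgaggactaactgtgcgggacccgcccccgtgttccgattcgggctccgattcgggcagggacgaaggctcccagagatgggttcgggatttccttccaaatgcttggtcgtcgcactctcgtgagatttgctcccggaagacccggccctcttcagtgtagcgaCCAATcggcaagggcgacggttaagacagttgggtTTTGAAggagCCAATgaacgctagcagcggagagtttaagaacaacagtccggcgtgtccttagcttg
Pola1: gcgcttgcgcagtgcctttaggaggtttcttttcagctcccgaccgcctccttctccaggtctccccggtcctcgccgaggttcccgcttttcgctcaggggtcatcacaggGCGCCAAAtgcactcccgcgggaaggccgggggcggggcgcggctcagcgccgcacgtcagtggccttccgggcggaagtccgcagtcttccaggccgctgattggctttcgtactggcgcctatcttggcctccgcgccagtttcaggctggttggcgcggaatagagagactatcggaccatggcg
Both mitotic windows hold 2 CCAAT boxes and 1 TTTGAA. Aurka was 71.7, 38.1, 21.2 and 20.6 FPKM in control and 79.5, 47.3 and 22.6 in Dppa2/4 cells, and Cdc20, the activator of the anaphase-promoting complex, 187, 95, 73.7 and 63.1 in control and 219.8, 107 and 53.9 in Dppa2/4 cells.

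Inhibitors of the cell cycle kinases were described beside these genes. Cdkn2a, the locus of the p16 and p19 inhibitors whose transcripts the table does not separate (ENSMUSG00000044303, chromosome 4, 89274471 to 89294653), was higher on later days in both arms. Its levels were 25, 34.7, 71.2 and 216 in control and 21.4, 25.6 and 85.8 in Dppa2/4 cells, highest on day 14 in both arms, and the change was 0.21 per day (SE 0.029, adjusted p = 0.0102). Its neighbour Cdkn2b (p15) was 21.3, 30.3, 37.8 and 110.3 FPKM in control and 12.5, 47.9 and 91.1 in Dppa2/4 cells (0.21 per day, SE 0.022, adjusted p = 0.00892). These were the 2 calls among 14 CDK inhibitors, D cyclins and their partners (median 0.045), near the 11.5% of all genes. Cdkn1a (p21) did not pass, with 221, 296, 289 and 447 FPKM in control and 480.4, 321 and 461 in Dppa2/4 cells (adjusted p = 0.343). Of 22 p53 targets 1 rose, Btg2 at 0.15 per day, and 0 fell, a smaller share than that of all genes.

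The machinery that makes ribosomes fell more widely than any other list of the 36 pathway lists tested: 23 of 27 ribosome biogenesis genes fell (85.2%, against 7.41% of all genes), 0 rose, and all 27 slopes were negative (median -0.13 per day). Nop56, a core protein of the box C/D particles that methylate ribosomal RNA (ENSMUSG00000027405, chromosome 2, 130274430 to 130279313), was 437, 283, 234 and 70.4 FPKM in control and 442, 251 and 43.6 in Dppa2/4 cells. It was 6.2-fold and 10.1-fold lower on day 14 than on day 2 (-0.24 per day, SE 0.031, adjusted p = 0.00986). Both day 14 libraries lay far below the other 5. Its partner Nop58 changed by -0.19 per day, Fbl, the methyltransferase of the same particle, by -0.13, and Dkc1, the pseudouridine synthase of the box H/ACA particles, by -0.18. Ncl (nucleolin) was 218, 138, 121 and 53.4 FPKM in control and 252, 124 and 75 in Dppa2/4 cells (-0.15 per day, SE 0.017, adjusted p = 0.00892). Polr1a, Polr1b and Polr1e, subunits of RNA polymerase I, changed by -0.11, -0.16 and -0.16 per day.

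The median gene of ribosome biogenesis was lower at the end of each interval in both arms. The median gene changed by -0.72 from day 2 to day 8 and -0.90 from day 8 to day 14 in control cells, and by -0.95 and -0.91 in Dppa2/4 cells. With the library labelled Dppa2/4 day 4 added, 12 of 27 were lower, against 0 of 37 replication and 0 of 36 mitotic genes. Without day 2 there were 5, against 15 for mitosis and 10 for replication. The letters CACGTG, the E-box bound by Myc and related factors, were found in 5 of 25 promoters of 23 of these genes (20.0%), against 7.15% of all promoters. The promoter of Wdr43, a protein of the small subunit processome, is shown with the element in capitals since it had the steepest fall among called genes with a match (chr17:71615965-71616264, plus strand).
Wdr43: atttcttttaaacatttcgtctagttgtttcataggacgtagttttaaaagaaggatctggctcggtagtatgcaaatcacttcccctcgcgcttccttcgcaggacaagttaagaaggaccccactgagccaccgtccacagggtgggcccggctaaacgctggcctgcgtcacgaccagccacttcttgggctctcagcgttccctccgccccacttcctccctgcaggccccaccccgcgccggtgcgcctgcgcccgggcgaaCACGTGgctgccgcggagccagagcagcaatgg
Wdr43 was 50.6, 36.1, 36.7 and 11.6 FPKM in control and 50.1, 31.7 and 13 in Dppa2/4 cells. Myc itself was 112, 107, 132 and 91.3 FPKM in control and 199, 78.9 and 35.2 in Dppa2/4 cells, and its change did not pass (-0.11 per day, SE 0.039, adjusted p = 0.102).

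Some genes of the respiratory chain and of stress responses fell. Cycs, the cytochrome c of somatic cells, was 47.4, 22.7, 19.6 and 12.9 FPKM in control and 91.1, 31.3 and 18.5 in Dppa2/4 cells (-0.15 per day, SE 0.026, adjusted p = 0.014), but the respiratory chain as a list stayed near the background, with 2 of 29 lower, 0 higher and a median of -0.0077. The other was Ndufs1, a subunit of complex I. Hsph1 and Hsp90aa1, chaperones of the heat shock family, changed by -0.21 and -0.14 per day. In all 5 of 20 genes of heat shock and oxidative stress fell (25%, against 7.41% of all genes) and 3 rose (15%, near the 11.5%). Those that rose included Sod3, the extracellular superoxide dismutase, at 0.22. Phgdh and Psat1, the first enzymes of serine synthesis, fell from 138 to 35.7 and from 264 to 88.8 FPKM in control cells between day 2 and day 14, and from 199 to 47.2 and from 285 to 96 in Dppa2/4 cells. They belong to the 23 genes of ER stress and ATF4, of which 4 rose (17.4%) and 3 fell (13%), the stress factor Ddit3 being highest at 0.17 per day.

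Genes of lysosomes and autophagy rose together, with 18 of 28 higher, 0 lower and a median change of 0.11 per day, against 11.5% of all genes that rose. Ctsb, the lysosomal protease cathepsin B (ENSMUSG00000021939, chromosome 14, 63122462 to 63145923), was 79.7, 114, 182 and 333 FPKM in control and 92.6, 143 and 278 in Dppa2/4 cells (0.15 per day, SE 0.016, adjusted p = 0.00892). It was higher at each later day in both arms. Ctsd, the lysosomal protease cathepsin D, and Npc1, which exports cholesterol from lysosomes, changed by 0.11 and 0.12 per day. Sqstm1 (p62), the receptor that brings cargo to autophagosomes, was 344, 520.1, 837 and 1085 FPKM in control and 314, 612 and 917 in Dppa2/4 cells. Gabarapl1 and Map1lc3b, ubiquitin-like proteins of the autophagosome membrane, changed by 0.13 and 0.12. In control cells most of the rise came before day 8 (median 1.15, then 0.39), in Dppa2/4 cells after it (0.18, then 0.61). CACGTG, which is also the centre of the element bound by TFEB, occurred in 7 of 24 promoters of 20 of these genes (29.2%).

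**Figure D2:**
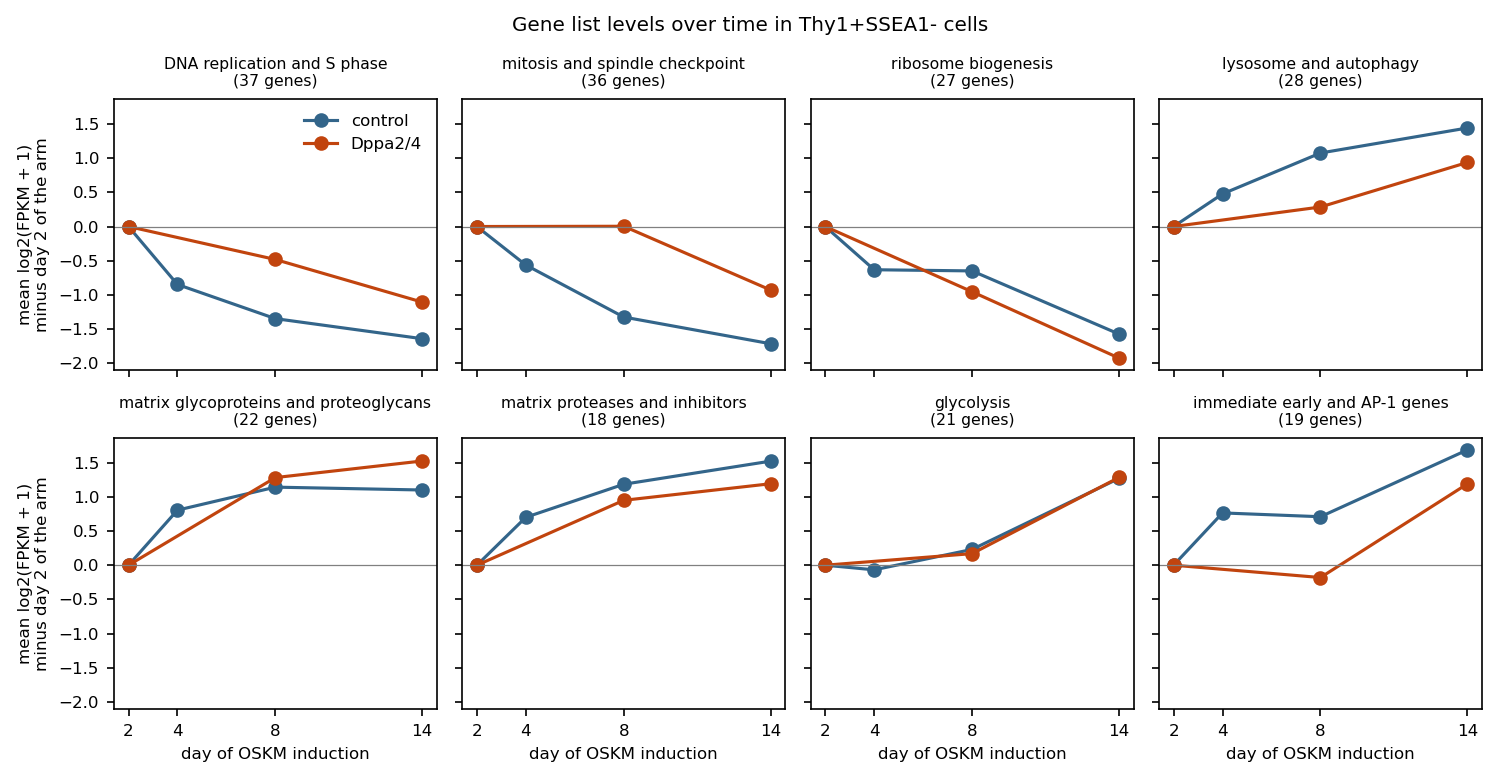
Mean log2(FPKM + 1) of the tested genes of 8 lists, as the difference from day 2 of the same arm (vertical axis), against the day of induction; each point is 1 library, blue for control and red for Dppa2/4. Replication and mitosis fell mostly before day 8 in control and mostly after it in Dppa2/4 cells. Ribosome biogenesis fell before and after day 8 in both arms but was nearly level from day 4 to day 8 in control cells (5.58 and 5.56). Glycolysis rose mostly between day 8 and day 14 in both arms.

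Extracellular matrix and the enzymes that remodel it were higher on later days. Of 21 collagens and collagen-modifying enzymes 7 rose (33.3%, against 11.5% of all genes) and 0 fell (median 0.076). Of 22 matrix glycoproteins and proteoglycans 6 rose (27.3%) and 0 fell (median 0.093), and of 18 matrix proteases and inhibitors 8 rose (44.4%) and 0 fell (median 0.081). Prelp, a leucine-rich proteoglycan that anchors basement membranes (ENSMUSG00000041577, chromosome 1, 133910304 to 133921414), was 25.5, 89.8, 184 and 437 FPKM in control and 1.92, 85.3 and 212 in Dppa2/4 cells (0.40 per day, SE 0.067, adjusted p = 0.0135). Its Dppa2/4 day 2 value lay far below the other 6. Fmod, which binds collagen fibrils, was 17.8, 50.8, 71.6 and 103 FPKM in control and 1.95, 13.8 and 13.2 in Dppa2/4 cells, and Fn1 (fibronectin) 399, 572, 681 and 1009 in control and 108, 504 and 1037 in Dppa2/4 cells. Both arms were higher on day 14 than on day 2, from different starting levels.

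The major fibrillar collagens did not pass. Col1a1, the main chain of type I collagen and the locus that carries the OSKM cassette, had 560.5, 566, 724 and 464 FPKM in control and 84.6, 269 and 224 in Dppa2/4 cells (adjusted p = 0.477), and Col1a2 907, 794, 716 and 739 in control and 255, 350.0 and 283 in Dppa2/4 cells. Neither was highest on day 14 in either arm. The collagen list was carried by Col6a1, Col6a2 and Col5a3, with 0.11, 0.12 and 0.11 per day, and by Pcolce, Loxl1, P4ha1 and Plod1, which process, cross-link or hydroxylate collagen. Pcolce, which enhances procollagen cleavage, was 288, 414, 547 and 786 FPKM in control and 146, 338 and 470.2 in Dppa2/4 cells (0.13 per day, SE 0.019, adjusted p = 0.0119).

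Among the proteases, Mmp13 (collagenase 3) was 4.79, 22.6, 78 and 80.7 FPKM in control and 3.4, 84.8 and 55.8 in Dppa2/4 cells (0.30 per day, SE 0.079, adjusted p = 0.0418), and Mmp3 (stromelysin 1) 21.4, 144, 399.7 and 711 in control and 23.5, 223 and 128 in Dppa2/4 cells (0.29 per day, SE 0.080, adjusted p = 0.0454). In the Dppa2/4 arm both were higher on day 8 than on day 14. The other risers were Mmp2, Mmp10, Mmp11, Mmp19, the plasminogen activator Plat and the inhibitor Timp2. The AP-1 element TGACTCA occurred on either strand in 4 of 17 promoters of 14 genes of this list (23.5%), against 5.2% of all promoters. The promoter of Mmp13, the steepest of them, is shown with it in capitals (chr9:7272264-7272563, plus strand).
Mmp13: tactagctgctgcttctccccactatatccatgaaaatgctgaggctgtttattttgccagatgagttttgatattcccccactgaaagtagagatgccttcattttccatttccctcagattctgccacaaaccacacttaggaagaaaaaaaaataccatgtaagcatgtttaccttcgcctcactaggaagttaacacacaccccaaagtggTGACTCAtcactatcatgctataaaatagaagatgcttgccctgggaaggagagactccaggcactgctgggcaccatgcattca
The capitals stand shortly before the transcription start. In the promoters of the immediate early genes described below, the same letters occurred in 0 of 22.

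Other secreted proteins followed. Spp1 (osteopontin), an adhesive glycoprotein of remodelled tissue, rose from 373 to 4173 FPKM in control cells and from 465 to 2700.3 in Dppa2/4 cells (0.25 per day, SE 0.024, adjusted p = 0.00892). Of 15 genes of insulin-like growth factor signalling 6 rose (40%, against 11.5% of all genes) and 0 fell. They were led by Igfbp4, which binds and holds back the growth factors, with 29, 64.4, 76 and 177 FPKM in control and 67.3, 130.1 and 387 in Dppa2/4 cells. Of 12 complement genes 4 rose (33.3%), Serping1 (the C1 inhibitor) most, with 16.4, 54.9, 91.8 and 156 FPKM in control and 1.24, 20.6 and 35.2 in Dppa2/4 cells. The cytokines and chemokines were called in both directions, with 5 of 19 higher (26.3%, against 11.5% of all genes) and 2 lower (10.5%, near the 7.41%). Cx3cl1 (fractalkine) was 3.66, 5.71, 12.5 and 61.3 FPKM in control and 4.37, 11.4 and 24.8 in Dppa2/4 cells, and Csf1, Ccl11, Tslp and Tnfrsf11b also rose. Cxcl5, a neutrophil chemokine, fell, with 82.3, 158, 109 and 32 FPKM in control and 61.4, 33.4 and 5.75 in Dppa2/4 cells (-0.20 per day, SE 0.046, adjusted p = 0.0292), and so did Il6 (-0.11 per day), an interleukin of the senescence secretome that stayed under 5 FPKM.

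Signals that shape fibroblasts and their targets rose in part. Of 16 TGF-beta genes 5 rose (31.2%, against 11.5% of all genes) and 0 fell (median 0.066). Ltbp2, a matrix protein related to those that store latent TGF-beta, was 7.18, 10.2, 26 and 52.2 FPKM in control and 6.64, 10.6 and 37.7 in Dppa2/4 cells (0.21 per day, SE 0.023, adjusted p = 0.00892), highest on day 14 in both arms. Ctgf and Cyr61, secreted targets of TGF-beta and YAP, changed by 0.21 and 0.17 per day. Of 12 smooth muscle contractile genes 3 rose, Cnn2, Actg2 and Tagln, at 0.13, 0.12 and 0.10 (25%, a share that rests on few genes). Acta2, the actin of myofibroblasts, was 805, 667, 877 and 913 FPKM in control and 199, 252 and 404 in Dppa2/4 cells and did not pass (adjusted p = 0.114).

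Of 17 BMP and Id genes 6 rose (35.3%, against 11.5% of all genes), with Id3, a target of BMP signalling that blocks bHLH factors, at 46.3, 67.5, 86.8 and 196 FPKM in control and 15.2, 39.6 and 141 in Dppa2/4 cells (0.21 per day, SE 0.024, adjusted p = 0.00892). Of 25 Wnt genes 4 rose (16%, near the 11.5% of all genes), and 1 without day 2 and 1 with the library labelled Dppa2/4 day 4, with Dkk3, a secreted protein of the Dickkopf family, at 7.3, 16.1, 29.2 and 60.8 in control and 7.27, 48.1 and 107 in Dppa2/4 cells. Under quantile normalization 4 Wnt genes rose and 1 fell. The mesenchymal transcription factors held near the background, with 1 of 17 higher (Prrx2, 0.11 per day) and 0 lower, and so did the Hox genes, with 3 of 26 higher. Imprinted genes were also near the background: of 20, Sgce rose (5%, against 11.5%) and Mest and Slc38a4 fell (10%, against 7.41%). Mest went from 43.8 to 8.22 FPKM in control cells and from 62.7 to 9.18 in Dppa2/4 cells between day 2 and day 14.

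Glycolysis was higher on day 14 in both arms, with 6 of 21 genes that rose (28.6%, against 11.5% of all genes) and 0 that fell (median 0.087 per day). Aldoc, the aldolase of brain and other tissues (ENSMUSG00000017390, chromosome 11, 78322968 to 78327781), was 8.07, 76.6, 149.7 and 419.9 FPKM in control and 4.0, 39.1 and 229.6 in Dppa2/4 cells, 52.1-fold and 57.4-fold higher on day 14 than on day 2. It had the highest slope of the protein-coding genes with a mean of at least 5 FPKM (0.43 per day, SE 0.056, adjusted p = 0.00986). Slc2a1, the main glucose carrier of cultured cells, was 27.7, 31.5, 54.4 and 118 FPKM in control and 23.8, 48.3 and 239 in Dppa2/4 cells. For the median gene of the list the step from day 2 to day 8 was -0.030 in control and -0.27 in Dppa2/4 cells, and from day 8 to day 14 1.10 and 1.03. Without day 14 the median was -0.040 per day, so this list rested on the last day.

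A pair of genes that many tissues raise in low oxygen or high glucose moved along. Adm (adrenomedullin, a vasodilator peptide) was 3.54, 13.8, 16.2 and 167 FPKM in control and 27.7, 37.8 and 279 in Dppa2/4 cells, with day 14 far above all other days. Txnip, the thioredoxin-binding protein that restrains glucose uptake, was 99.1, 286, 465 and 1391 in control and 68.2, 433 and 1489.8 in Dppa2/4 cells (0.33 per day, SE 0.031, adjusted p = 0.00892). Of 21 genes of cholesterol synthesis and uptake 10 rose (47.6%, against 11.5% of all genes), 0 fell and all 21 slopes were positive (median 0.086). Insig1, the feedback sensor of the pathway, was 21.8, 30.9, 74.7 and 77.7 FPKM in control and 14.9, 44.7 and 76 in Dppa2/4 cells, and Fdft1, the squalene synthase, 40.9, 45.6, 67.3 and 122 in control and 30.6, 60.6 and 102 in Dppa2/4 cells. Srebf2, the factor that drives the pathway, changed by 0.12 per day. CCAAT occurred in 15 of 18 promoters of 15 of these genes (83.3%).

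Immediate early genes rose in part. Of 19 immediate early and AP-1 genes 9 rose (47.4%, against 11.5% of all genes) and 0 fell (median 0.11). Of 14 MAPK feedback genes 3 rose, Dusp5, Dusp4 and Spred3 (21.4%, a share that rests on few genes, median 0.13). Ier3, an early response gene of stress signalling, was 12.5, 33.3, 50.7 and 149 FPKM in control and 45.2, 61.8 and 165 in Dppa2/4 cells (0.21 per day, SE 0.033, adjusted p = 0.0119). Fos was 63, 135, 119 and 246 in control and 27.1, 35.8 and 163 in Dppa2/4 cells, and Junb 7.11, 12.9, 22 and 48.7 in control and 6.57, 4.49 and 21.5 in Dppa2/4 cells. In Dppa2/4 cells Fos and Junb were low on days 2 and 8 and high on day 14 alone. There the median of the immediate early list changed by -0.35 from day 2 to day 8 and by 1.33 from day 8 to day 14, and that of the MAPK feedback list by 1.24 and -0.54. Without both day 14 libraries the median of the immediate early list was 0.0053 per day.

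**Figure D3:**
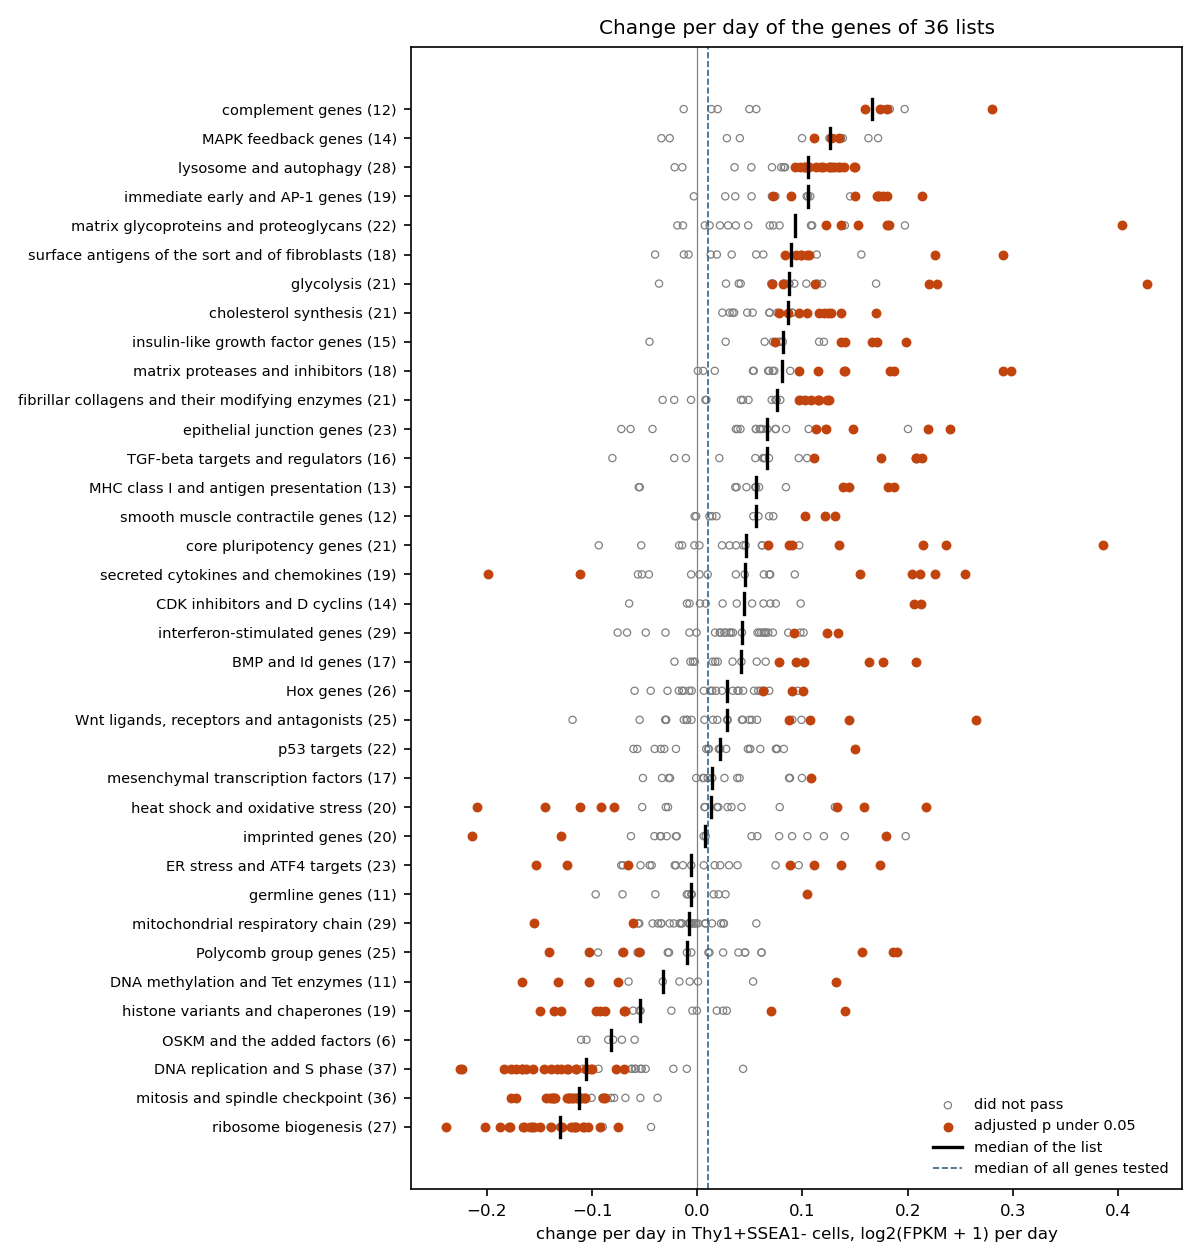
Change per day, on the log2(FPKM + 1) scale (horizontal axis), of every tested gene of 36 pathway lists, ordered by their median; filled red points passed an adjusted p of 0.05, open grey points did not, black ticks are list medians and the dashed line is the median of all genes tested. Ribosome biogenesis, mitosis and DNA replication lie on the left with 23 of 27, 22 of 36 and 24 of 37 genes called, and lysosome and autophagy on the right with 18 of 28.

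Surface antigens of fibroblasts and stromal cells rose in part, with 8 of 18 higher (44.4%, against 11.5% of all genes) and 0 lower. Ly6a (Sca-1), an antigen of stromal and stem cells, was 99.1, 219.8, 694 and 2100.0 FPKM in control and 267, 1619 and 1562 in Dppa2/4 cells (0.29 per day, SE 0.048, adjusted p = 0.0135), and its relative Ly6c1 2.52, 7.75, 19.6 and 83.2 in control and 7.3, 66.3 and 81.2 in Dppa2/4 cells. Genes of this family are similar in sequence, so reads may be shared among them. Cd34, a sialomucin of fibroblasts and progenitors, was 154, 243, 382 and 752 FPKM in control and 29.4, 356 and 307 in Dppa2/4 cells. Thy1, on which the cells were sorted, changed by 0.094 per day (SE 0.023, adjusted p = 0.0332), with the arms apart on day 14 at 749 and 278 FPKM. Of 13 genes of MHC class I presentation 4 rose (30.8%), H2-T23, H2-M3, Tap1 and Tap2, led by H2-T23 with 1.18, 2.85, 4.8 and 15.2 FPKM in control and 1.56, 3.57 and 7.13 in Dppa2/4 cells. Interferon-stimulated genes rose in 3 of 29, a share near that of all genes.

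Some pluripotency and epithelial genes rose within the gate. Of 21 core pluripotency genes tested, of 32 in the list, 7 rose (33.3%) and 0 fell, and under quantile normalization 4 rose and 1 fell. Genes were tested only with at least 1 FPKM in at least 2 libraries. Genes near 0 on early days thus entered only through the later libraries where they were higher. This can tilt the share towards rises, so the share is not read as a rise of the list. Dppa5a, an RNA-binding protein of pluripotent cells (ENSMUSG00000060461, chromosome 9, 78367052 to 78368177), was 0, 0.447, 0.468 and 27.3 FPKM in control and 0.486, 2.23 and 34.6 in Dppa2/4 cells, near 0 until day 8 and above 27 on day 14 in both arms. Tdgf1 (Cripto), a co-receptor of Nodal, was 0, 0.258, 1.3 and 6.31 FPKM in control and 0.352, 2.96 and 8.15 in Dppa2/4 cells. Esrrb, Zfp42, Sall4 and Eras rose too but did not exceed 2.86 FPKM, and Upp1, a uridine phosphorylase that fibroblasts also express, rose from 70.6 to 574 FPKM in control and from 96 to 435 in Dppa2/4 cells. Nanog did not pass, with 1.42, 3.93, 2.75 and 3.57 FPKM in control and 1.97, 4.58 and 4.69 in Dppa2/4 cells (adjusted p = 0.18).

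Of 23 epithelial junction genes 5 rose (21.7%, against 11.5% of all genes), Krt18, F11r, Jup, Pkp3 and Epcam, and 0 fell. The median gene changed by -0.34 from day 2 to day 8 in Dppa2/4 cells. Krt18, a keratin of simple epithelia, was 2.48, 5.42, 12 and 29.2 FPKM in control and 28.6, 50.7 and 195 in Dppa2/4 cells (0.24 per day, SE 0.023, adjusted p = 0.00892), with the Dppa2/4 library higher at each shared day. Epcam, an adhesion molecule of epithelia and pluripotent cells, was 0.372, 0.969, 3.14 and 3.24 FPKM in control and 9.21, 16 and 19.9 in Dppa2/4 cells, so that the arms did not overlap. Cdh1 (E-cadherin) was 4.99, 14.8, 24.8 and 8.11 in control and 6.28, 10 and 10.9 in Dppa2/4 cells and did not pass (adjusted p = 0.607). None of the 6 genes of the cassette and the added pair passed. Pou5f1 was 336, 391, 409 and 213 FPKM in control and 327, 276 and 78.3 in Dppa2/4 cells (-0.11 per day, SE 0.035, adjusted p = 0.0702), Klf4 27.2, 31.9, 40.4 and 24.6 in control and 40.3, 23.3 and 9.21 in Dppa2/4 cells, and Sox2 7.45, 7.08, 12.1 and 7.12 in control and 12.2, 4.0 and 3.3 in Dppa2/4 cells. Pou5f1, Klf4, Sox2 and Myc were lowest on day 14 in Dppa2/4 cells, and these values join the cassette and the endogenous genes. Of 11 germline genes tested, 1 rose (Rec8, a meiotic cohesin) and 0 fell, and this 9.09% is near the 11.5% of all genes.

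Chromatin genes were called in both directions. Of 25 Polycomb genes 3 rose (12%, near the 11.5% of all genes) and 4 fell (16%, against 7.41%). Ezh2, the methyltransferase of dividing cells, was 46.2, 30.5, 18.9 and 10.4 FPKM in control and 48, 34.6 and 18.3 in Dppa2/4 cells (-0.14 per day, SE 0.019, adjusted p = 0.0104), while its relative Ezh1, common in resting cells, was 15, 16.8, 30.8 and 45.1 in control and 14, 38 and 67.9 in Dppa2/4 cells (0.16 per day, SE 0.019, adjusted p = 0.00922). Eed, Rbbp7 and Pcgf6 fell as well, and Cbx7 and Phf1 rose. Of 11 genes of DNA methylation 4 fell (36.4%), Uhrf1, Tdg, Dnmt1 and Dnmt3b, and 1 rose (9.09%). Uhrf1, which brings Dnmt1 to newly copied DNA, was 96.8, 46.4, 29 and 15.4 FPKM in control and 71.2, 53.5 and 23.5 in Dppa2/4 cells. Of 19 histone variants and chaperones 8 fell (42.1%), among them H2afx, H2afz, Asf1b and the centromeric Cenpa, and 2 rose (10.5%), H2afv and H1f0, the linker histone of resting cells, at 0.14 per day.

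**Figure D4:**
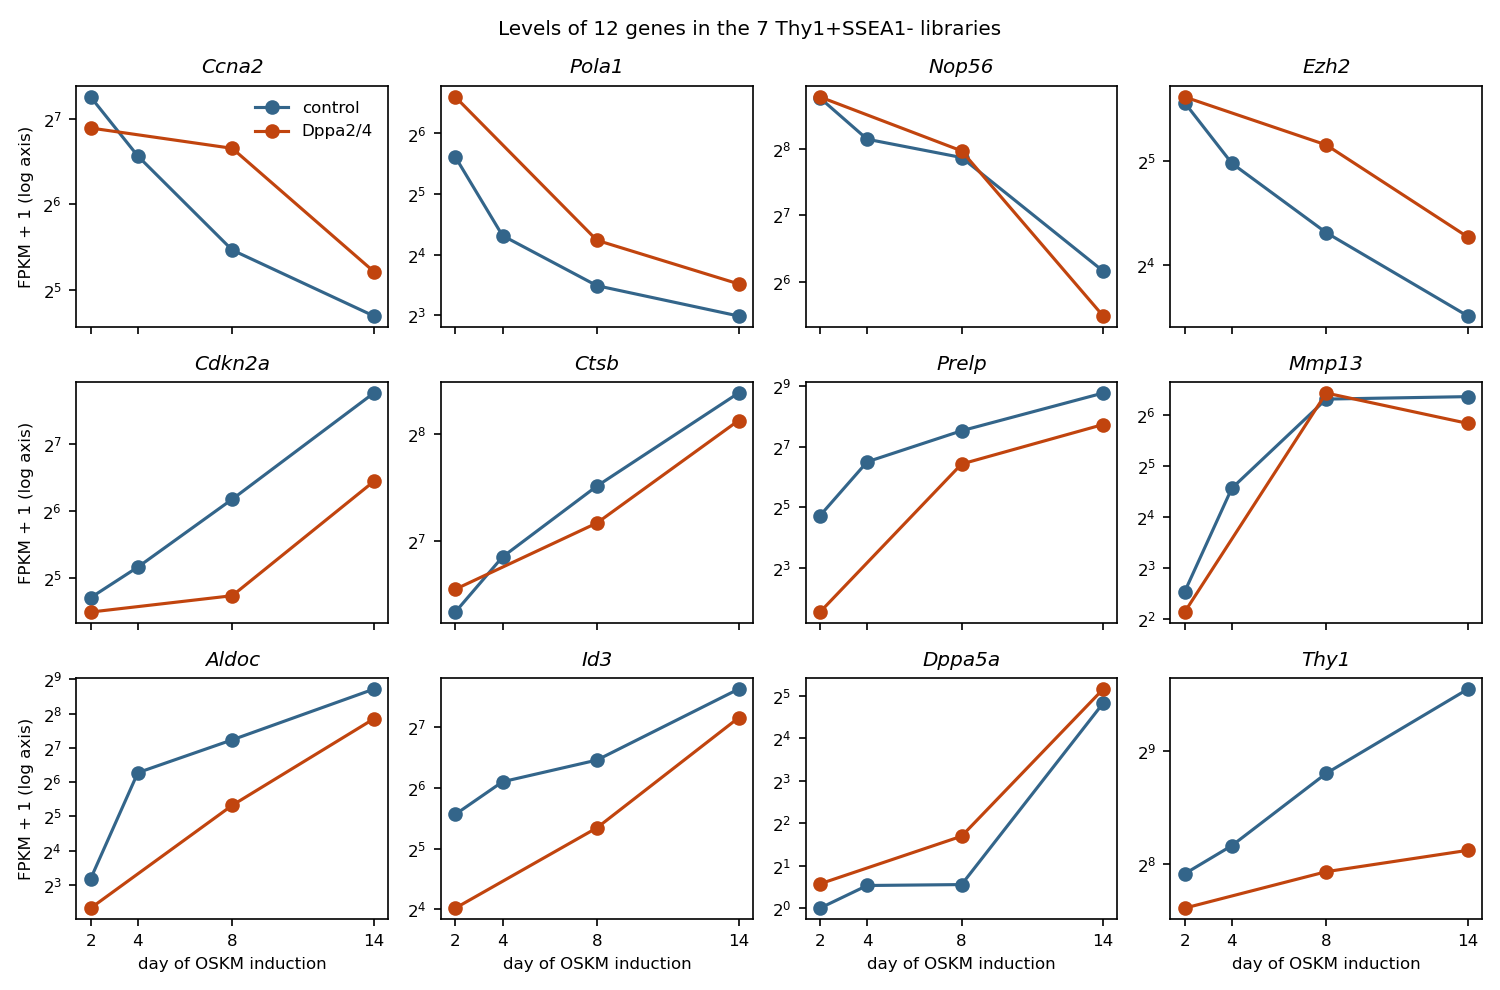
FPKM + 1 on a log axis against the day of induction for 12 genes in the 7 libraries; blue points are control and red points Dppa2/4, 1 library each, and lines join the libraries of an arm. Ccna2, Pola1, Nop56 and Ezh2 are lowest on day 14 in both arms, and Cdkn2a, Ctsb, Prelp, Aldoc, Id3, Dppa5a and Thy1 are highest on day 14 in both, while Mmp13 peaks on day 8 in Dppa2/4 cells.

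Markers of other cell types were read in the same libraries. Ptprc, which marks leukocytes, was at most 0.15 FPKM, the endothelial Cdh5 at most 0.03, the muscle factors Myod1 and Myog at most 0.03, the keratins Krt5 and Krt14 at most 0.26, and Ttr, Tpbpa and Cidec were listed at 0 in all 7. Other members of these lists were higher, and some of them are given below. The summed FPKM of the 16 leukocyte markers was 30.4 to 44.4 on day 2 and 120.4 to 128.6 on day 14, mainly from Laptm5, Cd68 and Lyz2. Tyrobp, Cd74, Cd14 and Fcer1g reached 3.50, 3.36, 3.17 and 2.73 FPKM, and the remaining members stayed under 1 FPKM. All 6 tested members had positive slopes (median 0.12 per day), and Laptm5 and Cd68, which are also lysosomal proteins, passed the test. Without both day 14 libraries the median of the list was 0.017 per day. The 18 chondrocyte and bone markers summed to 415 to 525 on day 2 and 2749 to 4253 on day 14, nearly all Spp1. The 16 neural markers summed to 167 and 281 FPKM in the lower and the higher library of day 2 and to 51.4 to 149.95 in the other 5. Tubb3 and Nefl, neuronal cytoskeleton genes, stood at 81.1 and 69.4 FPKM in the Dppa2/4 day 2 library and at or under 7.24 in the other 6. Neither passed with all genes (limma, adjusted p = 0.0775 and 0.061), and both passed as lower among protein-coding genes alone. The 14 endothelial markers summed to 36.1 and 130.1 FPKM in the libraries of day 2, 47.2 on day 4, 49.8 and 59.9 on day 8, and 49.1 and 89.5 on day 14, with Egfl7, a secreted protein of endothelium and other cells, at up to 89.5. Tek was 5.65 to 33.0 FPKM in the 7 libraries, and Cldn5, Esam, Sox18 and Erg reached 16.4, 8.57, 6.53 and 6.45. Flt1 and Kdr reached 3.08 and 2.17, while Pecam1, Tie1, Emcn, Vwf and Sox17, like Cdh5, stayed under 1 FPKM. The 16 skeletal and cardiac muscle markers summed to 18.9 and 70.6 FPKM in the libraries of day 2, 13.5 on day 4, 14 and 35.4 on day 8, and 29.9 and 47.7 on day 14, with Mylpf, a myosin light chain, at up to 53.2. The higher day 2 sum was that of the Dppa2/4 library in the endothelial, muscle, keratinocyte and adipocyte lists. The 15 keratinocyte markers summed to 5.24 and 47.2 FPKM in the libraries of day 2, 8.82 on day 4, 9.41 and 17.6 on day 8, and 12.5 and 14.6 on day 14, with Sfn at up to 29.8. The 19 trophoblast and extraembryonic endoderm markers summed to 51.1 and 61.7 FPKM in the libraries of day 2, 77.8 on day 4, 87.1 and 102 on day 8, and 74.1 and 105 on day 14, with Dab2, an endocytic adaptor, at up to 81.8. The trophoblast list was lowest on day 2. The 14 adipocyte markers summed to 19.8 and 58.3 FPKM in the libraries of day 2, 22.9 on day 4, 18.2 and 24.8 on day 8, and 33.8 and 55.8 on day 14, with Fabp4 at up to 36.2. The endothelial, muscle, keratinocyte and trophoblast lists had 0 calls (limma), the neural list 1 (S100b), the chondrocyte and bone list 1 (Spp1), and the adipocyte list 2 (Fabp4 and Lipe). S100b reached 1 FPKM on day 14 alone, at 1.48 in control and 1.72 in Dppa2/4 cells, and so entered the test only through those libraries. The part of such cells in the changes above was not tested.

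The second question was whether added Dppa2/4 changed the course over time. No gene passed the test of a difference between the slopes of the arms (limma, lowest adjusted p = 0.521, 840 of 14608 genes at an unadjusted p under 0.05, and 0 calls with a pseudocount of 0.1, without the filter, with quantile normalization, with a mean of at least 5 FPKM, without a trend and with the library labelled Dppa2/4 day 4). Nor did any gene pass the test of departure from a straight line (lowest adjusted p = 0.218, 2483 genes at an unadjusted p under 0.05, and 0 calls in the same alternatives). With 3 libraries in the Dppa2/4 arm these tests had few residual degrees of freedom, and they do not show that the arms ran alike. Among the genes named here, Myc had slopes of -0.019 per day in control and -0.21 in Dppa2/4 cells (unadjusted p = 0.00197, adjusted p = 0.788), and Thy1 0.14 and 0.043 (adjusted p = 0.788).

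The last question was where the course of Thy1+SSEA1- cells differed from that of Thy1-SSEA1- cells, which were sorted as negative for both antigens. On day 2, Thy1 RNA was 164 FPKM in control and 229.6 in Dppa2/4 Thy1- cells, against 241 and 195 in Thy1+ cells. Whether the Thy1- cells of day 2 had lost Thy1 or had little from the start was not tested. The 9 Thy1-SSEA1- libraries cover days 2, 4, 8 and 11 of control and days 2, 4, 8, 11 and 14 of Dppa2/4 cells. Of 15665 genes tested, 489 had a higher slope in Thy1+ cells (3.12%) and 146 a lower one (0.932%), a split of 77.0% higher, or 54.2% with quantile normalization, which gave 275 and 232. Some matrix genes had higher slopes and some epithelial genes lower ones. Of 22 collagens and modifying enzymes 11 were higher and 0 lower, with a median slope of 0.075 per day in Thy1+ and -0.16 in Thy1- cells. Of 22 matrix glycoproteins 7 were higher, and of 20 proteases and inhibitors 5. Of 26 epithelial genes 5 were lower, with median slopes of 0.061 and 0.23, and of 29 core pluripotency genes 5. In Thy1+ cells alone, 23 epithelial and 21 pluripotency genes had been tested. The added ones reached 1 FPKM in at least 2 libraries only with Thy1- libraries counted. This can tilt the shares towards lower slopes in Thy1+ cells, so they are not read as a result about these 2 lists. Taken as differences within the 6 pairs of libraries of the same arm and day, 1 gene was higher and 1 lower of 15348 tested (limma, 4136 at an unadjusted p under 0.05). On simulated data that fit recovered 0 of 200 changed genes and the unpaired one 94. The simulated noise was independent between libraries, with nothing shared within a pair. It therefore could not show a gain from pairing and does not decide between the 2 fits.

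The gates were far apart on day 2 for several of these genes. Col1a1 in Thy1- cells was 2431, 433, 405 and 155 FPKM on days 2, 4, 8 and 11 of the control arm and 2099, 635, 178, 121 and 133 on days 2, 4, 8, 11 and 14 of the Dppa2/4 arm, so its highest values there were those of day 2, above every Thy1+ library. Its slope differed by 0.38 per day (SE 0.075, adjusted p = 0.0213). Ltbp2 was 131, 30.9, 31.8 and 11.2 FPKM in control and 161, 56.8, 14.1, 17 and 21.7 in Dppa2/4 Thy1- cells, likewise highest on day 2, while in Thy1+ cells it rose, as given above (0.47 per day, SE 0.071, adjusted p = 0.0161). Epcam was higher on the last day than on day 2 in both gates and arms, with the steeper slope in Thy1- cells, with 0.233, 1.93, 15.9 and 27.1 FPKM in control and 1.58, 17, 34.8, 47.4 and 68.9 in Dppa2/4 cells there (-0.29 per day, SE 0.072, adjusted p = 0.0447). Replication, mitosis, lysosome and glycolysis genes had 0 calls among 37, 36, 28 and 21 genes in this comparison. Of all genes, 3.12% were higher and 0.932% lower, so few calls are expected in lists of this size. Their median slopes in Thy1+ and Thy1- cells were -0.11 and -0.050 for replication and -0.11 and -0.026 for mitosis. For lysosome genes they were 0.11 and 0.0059, and for glycolysis 0.087 and 0.028, so 0 calls do not show a shared course. The test of a difference gave 0 calls without day 2 (1730 genes at an unadjusted p under 0.05), 0 without day 14 (2706) and 0 without any 1 of 4 libraries: control day 2, Dppa2/4 day 2 and Dppa2/4 day 14 of the Thy1+ gate, and Dppa2/4 day 2 of the Thy1- gate (2399 to 3605 genes at an unadjusted p under 0.05). Without Dppa2/4 day 14 of the Thy1- gate there were 1384 higher and 618 lower, and without control day 11 of that gate, control day 2 of that gate or control day 14 of the Thy1+ gate 65 to 96 higher and 21 or 22 lower.

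**Figure D5:**
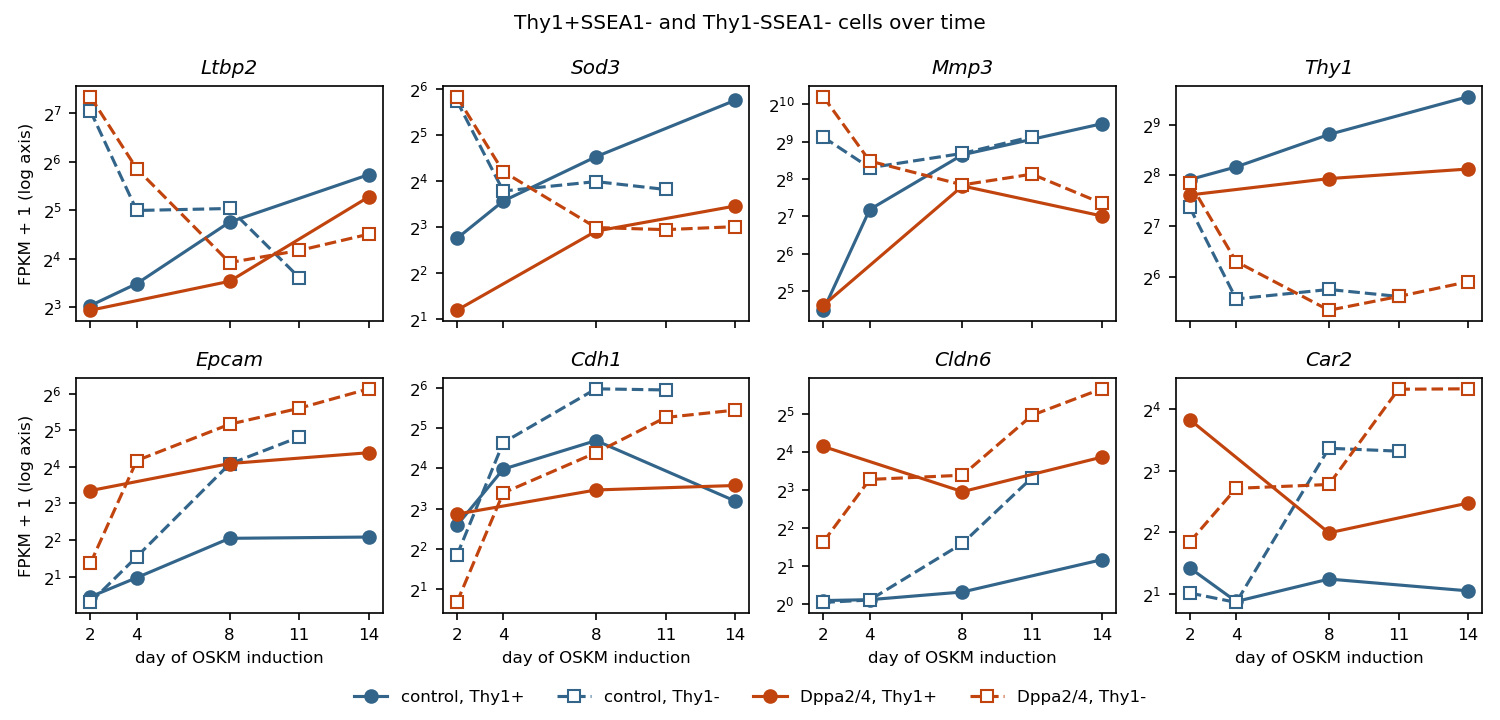
FPKM + 1 on a log axis against the day of induction for 8 genes in Thy1+SSEA1- cells (filled circles, solid lines) and Thy1-SSEA1- cells (open squares, dashed lines), blue for control and red for Dppa2/4, 1 library per point. Ltbp2, Sod3 and Mmp3 start high on day 2 in Thy1- and low in Thy1+ cells and lie closer by day 8, and Ltbp2 ends higher in Thy1+ cells, while Epcam, Cdh1 and Cldn6 climb more in Thy1- cells.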

How the data were processed

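RNA of 7 sorted Thy1+SSEA1- libraries was compared over time, with 9 Thy1-SSEA1- libraries for the difference between gates. The deposited values are FPKM per gene, made by the authors with TopHat2 and Cuffdiff on mm10 per the submitters' processing notes; their versions and the gene annotation are not given in the sources used here. FPKM is relative to the mapped fragments of its library, so a change is relative to the other RNA there. Of the value columns, 3 were not used. Gene positions came from GENCODE release M21 (GRCm38) for 32933 of 37973 genes, and promoters from RefSeq, GRCm38.p6.

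Genes with at least 1 FPKM in at least 2 fitted libraries were kept. log2(FPKM + 1) was fitted with limma 3.58.1 in R 4.3.3 on day and arm, with Benjamini-Hochberg adjustment over all genes tested and a threshold of 0.05; the procedure was tested on simulated data. The slope of each gate was fitted within gate and arm for the comparison of gates. Depth was worked back from the steps between low FPKM values of 2001 genes. Named were the 8 highest and 8 lowest called slopes with a mean of at least 5 FPKM (5 and 5 for gates), the steepest called gene of each of the 44 lists in each direction, and a set of sort, factor and fibroblast genes; other genes were chosen after their values were seen, and some genes that the rule names are not reported here. The members and lists were chosen with earlier results of these data known. Alternatives were another pseudocount, no filter, a mean of at least 5 FPKM, quantile normalization, no trend, log2 of day, no arm term, single arms, protein-coding genes, the labelled Dppa2/4 day 4 library, and leaving out each library and days 2 and 14; for the gates, the last 2, the protein-coding fit and a fit of differences within pairs of the same arm and day were chosen after seeing the data.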

Additional observations from a re-analysis of the deposited data

Results flagged for a closer look

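The 10 genes given here had the steepest differences in change per day between Thy1+SSEA1- and Thy1-SSEA1- cells on each side. They were taken from protein-coding genes with a mean of at least 5 FPKM that passed the limma test among protein-coding genes alone. Passing was thus part of their choice and is no separate result. With all genes, 9 of the 10 passed. Ltbp2 differed by 0.47 per day on the log2(FPKM + 1) scale, Agtr2, an angiotensin receptor, by 0.42, Sod3 by 0.42, Mmp3 by 0.41 and Mcpt8, a mast cell protease of a multigene family whose reads may be shared, by 0.41. All 5 were higher on day 2 in both Thy1- libraries than in both Thy1+ libraries. On the other side Cldn7 differed by -0.27, Epcam by -0.29, Cldn6 by -0.29, Car2 (carbonic anhydrase 2) by -0.30 and Cdh1 by -0.34. Cdh1 did not pass with all genes (adjusted p = 0.0569) and passed among protein-coding genes alone.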

How the results depend on the processing

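All counts here are genes called by limma. For the change per day, leaving out 1 library gave 0 to 1719 higher and 0 to 980 lower, lowest without Dppa2/4 day 14. Without day 2 there were 661 and 299, without day 14 0 and 0, in the control arm alone 0 and 0, in the Dppa2/4 arm alone 45 and 20, with the library labelled Dppa2/4 day 4 192 and 118, and with no arm term 917 and 703. The cause of these shifts was not tested, though most of these fits had fewer libraries. Pseudocount, filters, quantile normalization, trend, log2 of day and protein-coding genes left each count within 1.5 times. Of the genes named, 138 were called for change per day and 26 were not. Sign changes under an alternative touched 1 of the called genes and 19 of the others, and the cause was not tested. The called one was Plod1, at -0.0010 without day 14. Without day 14, Cdkn1a was -0.020, Cldn6 -0.077, Cldn7 -0.058, Lyz2 -0.21, Col1a2 0.0099, Pou5f1 0.0019, Egfl7 -0.18 and Mylpf -0.18. Without day 2, Car2 was 0.031, Cdh1 -0.064, Col1a1 -0.037, Dppa4 0.045, Fut4 0.0013, Fut9 0.0068, Nanog -0.0034, Dab2 -0.039 and Sfn 0.031. In the Dppa2/4 arm alone Cdkn1a was -0.0049, Cldn6 -0.023, Col1a2 0.013, Egfl7 -0.034 and Mylpf -0.035, and in the control arm alone Col1a1 was -0.019, Sox2 0.0051 and Sfn 0.013. With log2 of day Egfl7 was -0.032 and Mylpf -0.13, and with quantile normalization Mylpf was -0.0032. With the library labelled Dppa2/4 day 4, Dppa2 was 0.062 and Dppa4 0.075, and with no arm term 0.0041 and 0.015. Leaving out 1 library gave -0.092 to 0.0029 for Car2, -0.0036 to 0.11 for Cdh1, -0.011 to 0.10 for Cldn6, -0.023 to 0.11 for Col1a1, -0.027 to 0.0038 for Col1a2, -0.14 to 0.0041 for Dppa4, -0.011 to 0.12 for Dab2, -0.052 to 0.085 for Egfl7, -0.073 to 0.052 for Mylpf and -0.12 to 0.024 for Sfn. For the difference between gates, leaving out 1 library gave 0 to 1384 higher and 0 to 618 lower. No filter gave 219 and 92, quantile normalization 275 and 232, and days 2, 4 and 8 alone, without day 2 and without day 14 each 0 and 0. The tests between arms and of curvature gave 0 under every setting run. In the fit paired by arm and day, which was chosen after seeing the data, 1 gene had a higher and 1 a lower slope in Thy1+ cells, with 4136 at an unadjusted p under 0.05. It has 6 pairs and 3 residual degrees of freedom, and the labels do not say that the libraries of a pair came from 1 culture. For the change per day no paired analysis was possible because the groups share no replicate number, and the arm was a term of the fit. Depth limits genes near 1 FPKM.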

Other observations

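Among protein-coding genes with steep slopes outside the lists, Msln (mesothelin), a surface glycoprotein of mesothelium, was 6.0, 6.48, 27.2 and 50.01 FPKM in control and 6.27, 62.6 and 184 in Dppa2/4 cells (0.32 per day, adjusted p = 0.00932, limma), highest on day 14 in both arms. Timm8a1, a chaperone of the mitochondrial intermembrane space, was 54.5, 28.1, 20.5 and 10.3 FPKM in control and 83.6, 19.8 and 6.27 in Dppa2/4 cells (-0.23 per day, adjusted p = 0.00986).

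Short RNA genes took many of the steepest called slopes, 0.52 per day for Snord66 and -0.53 for Snord70. Snord66 was listed at 0 in 5 libraries and at 61.6 and 86.3 FPKM on day 14. Snord70 was listed at 0 on day 14 of both arms and on day 8 of the Dppa2/4 arm. FPKM of genes shorter than a sequenced fragment is an unsure estimate, and these RNAs are not polyadenylated, so their values were given no further weight.

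The library labelled Dppa2/4 day 4, left out of the fits, had 417 FPKM of Thy1 and 499.6 of Pou5f1.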
